A study of Mus musculus with 18 samples.

Results

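Bone marrow-derived macrophages (BMDMs) from wild type (WT) mice were exposed to monosodium urate (MSU) crystals, alone or together with apigenin, and the effect of apigenin on gene expression under MSU crystals was described across all expressed genes. The comparison rests on 6 of the 18 RNA-seq libraries, 3 from WT + MSU and 3 from WT + MSU + apigenin, taken by the names of the count columns. Members were the genes with an FPKM (fragments per kilobase, scaled to library depth) that reached 1 in 3 or more of 18 libraries, which were 12025 of the 55450 genes in the table. The mice were on the C57BL6/J background, of either sex, and no source used here states their age. Bone marrow cells grew for 7 days with L929 conditioned media and then received GM-CSF (20 ng/ml) over 24 h as priming, in all groups. WT + MSU then received MSU crystals at 0.2 mg/ml for 6 h, and WT + MSU + apigenin received the same crystals together with apigenin at 25 µM. WT non-treated and WT + apigenin, without MSU and with 3 libraries each, served for comparison. The sources used here name no vehicle for the libraries without apigenin, and they describe the replicates as biological ones with no word on whether each came from a separate mouse, so that the p-values measure the spread between these libraries.

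MSU crystals are the cause of gout, and macrophages that take them up assemble the NLRP3 inflammasome, which matures the cytokine IL-1β. CD38 is an enzyme that consumes NAD, and apigenin, a flavone of plants, inhibits it, among other targets that include protein kinases. Macrophages respond to danger signals in steps, from membrane receptors through NF-κB and MAP kinases to early transcription factors, cytokines, chemokines and interferon-stimulated genes, and the messages of the early steps are short-lived. The question of the comparison was how apigenin, as an inhibitor of CD38, changes the response of macrophages to the crystals.

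Levels are given as CPM (counts scaled to a common library size) after TMM scaling, a log2FC is the log2 fold change of WT + MSU + apigenin against WT + MSU with its standard error, and a gene was called higher or lower at a Benjamini-Hochberg adjusted p under 0.05 from edgeR's quasi-likelihood test and a log2FC of 1 or more in either direction. Apigenin changed a large part of the expressed genes. Of 12025 genes, 2168 were higher (18% of those tested) and 3107 were lower (25.8%). The falls were also the larger changes. A log2FC of −3 or below was found in 664 of the lower genes, and a log2FC of 3 or above in 61 of the higher genes. All 3 apigenin libraries lay above, or all 3 below, the 3 WT + MSU libraries in 5119 of the 5275 called genes. Over all tested genes the libraries lay apart upwards for 29.7% and downwards for 36.0%.

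The composition of the libraries moved with apigenin as well. Total counts were 66621883 to 81939324 in WT + MSU and 51058336 to 76708083 in WT + MSU + apigenin. Genes of the mitochondrial genome held 4.68% to 6.03% of the counts in WT + MSU and 11.1% to 13.3% with apigenin. The 20 genes with the most counts held 14.4% to 17.3% and 26.9% to 29.7%. The TMM factors accordingly lay at 1.09 to 1.23 and at 0.670 to 0.758. Scaling therefore set how the calls divided. With library totals in place of TMM the median log2FC of all tested genes moved from −0.05 to −0.76, and the calls became 351 higher and 4813 lower. The higher share of the calls was 41.1% with TMM and 44.1% with DESeq2's size factors. It fell to 6.80% with library totals, to 10.5% with totals that left out the mitochondrial genome and to 7.34% by limma on log2(FPKM + 0.5). No called gene changed its sign under any of these scalings. The median of all tested genes moved by 0.06 (DESeq2's size factors), −0.71 (library totals), −0.59 (without the mitochondrial genome) and −0.54 (limma). These shifts were smaller than the fold limit of 1, so that called genes had little room to change sign. A rise reported here is thus a rise relative to the bulk of genes, and total RNA per cell was not measured, so that fewer messages per cell and a shift of the whole pool cannot be told apart.

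The largest gains in CPM were messages of the mitochondrial genome, of lysosomes and of secreted macrophage products. The cytochrome c oxidase subunit gene mt-Co1 was at 12176, 15139 and 15005 CPM in WT + MSU and 74796, 70772 and 55170.5 CPM in WT + MSU + apigenin. Every apigenin library was several times above every other (log2FC 2.25 ± 0.22, adjusted p = 1.57e-06). The cytochrome b gene mt-Cytb (log2FC 1.89 ± 0.26, adjusted p = 2.62e-05) and mt-Co2 (log2FC 1.87 ± 0.26, adjusted p = 3.71e-05) moved with it, and 12 of the 13 protein-coding genes of the mitochondrial genome were higher (median log2FC 1.71, and 1.00 with library totals). The pseudogenes Gm29216 and Gm28661 on chromosome 1 also stood among the 8 largest gains, with log2FC of 2.43 and 2.26. As unprocessed pseudogenes their counts may hold reads of closely similar genes, so their rise is uncertain. Gm29216 lost its call without WT + MSU replicate 2, and Gm28661 lost it with the replicate number as a block (log2FC 2.35) and without apigenin replicate 1 or 3 or WT + MSU replicate 1 or 2. Lyz2, the lysozyme of macrophages (chr10:117277331-117282321 on GRCm38), was at 13113, 13521 and 12885 CPM in WT + MSU and 51884, 49402 and 37594 CPM in WT + MSU + apigenin. Replicate 3 had the smallest gain and still lay far above WT + MSU (log2FC 1.81 ± 0.31, adjusted p = 1.87e-04). Psap, the precursor of the saposins that help to break down sphingolipids in lysosomes (log2FC 1.34 ± 0.26, adjusted p = 4.80e-04), and the lysosomal protease gene Ctsb (log2FC 1.16 ± 0.18, adjusted p = 9.44e-05) completed the group, and the log2FC of Ctsb and Psap were 0.46 and 0.63 with library totals, where neither was called.

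Nuclear genes of the respiratory chain moved with the mitochondrial ones. Of 35 tested subunit genes, 21 were higher and 0 were lower, with a median log2FC of 1.10 beside −0.05 over all genes. For Cox4i1, a subunit of cytochrome c oxidase, the values were 323, 264 and 356 CPM in WT + MSU and 802, 827 and 645 CPM in WT + MSU + apigenin. The groups did not overlap (log2FC 1.27 ± 0.32, adjusted p = 0.00335). With library totals none of these 35 was called and the median was 0.39. Most genes of cytosolic ribosomal proteins rose as well. Of 84 tested, 76 were higher and 2 lower (median log2FC 1.56), and 11 were still called higher with library totals (median 0.85). Genes that make ribosomes did not share that direction: of 25 ribosome biogenesis factors, 0 were higher and 9 were lower, among them Wdr43 (log2FC −1.89), Tsr1 (−1.79) and Nop2 (−1.70), all parts of the machinery that processes pre-ribosomal RNA.

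The largest losses in CPM were stress and survival genes of high expression. Sqstm1, which encodes the autophagy receptor p62 (chr11:50199366-50210827), was at 2453, 2518 and 2194 CPM in WT + MSU and 190.3, 196 and 246 CPM in WT + MSU + apigenin. The replicates were close to each other in both groups (log2FC −3.50 ± 0.19, adjusted p = 8.43e-08). Hmox1, heme oxygenase-1, was at 1429, 1867 and 1076 CPM in WT + MSU and 178, 198 and 207 CPM in WT + MSU + apigenin. Again no apigenin library reached the lowest WT + MSU library (log2FC −2.91 ± 0.23, adjusted p = 3.11e-07). Mcl1, an anti-apoptotic member of the BCL2 family (chr3:95658788-95663176), was at 1089.8, 919 and 1150.4 CPM in WT + MSU and 45.8, 57.5 and 176 CPM in WT + MSU + apigenin. Replicate 3 retained the most, though far below WT + MSU (log2FC −3.50 ± 0.48, adjusted p = 2.74e-05). Other genes of this group were Slfn2 (log2FC −3.81 ± 0.46, adjusted p = 9.58e-06), the secretory pathway kinase Fam20c (log2FC −3.40 ± 0.32, adjusted p = 1.06e-06), the stress transcription factor Atf3 (log2FC −3.22 ± 0.61, adjusted p = 4.30e-04) and the lipid droplet coat gene Plin2 (log2FC −3.12 ± 0.34, adjusted p = 4.26e-06).

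**Figure D1:**
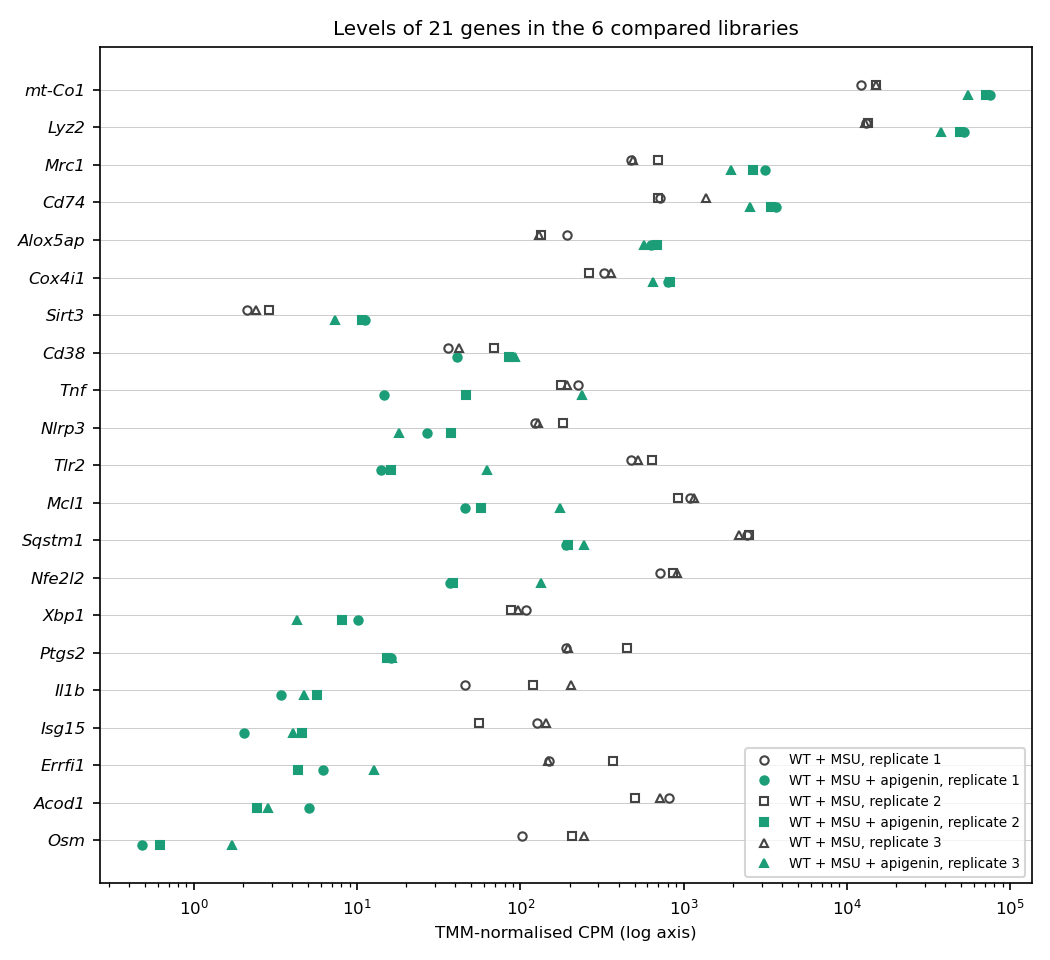
Level of 21 genes in each of the 6 compared libraries, in TMM-normalised CPM on a log axis, with open grey symbols for WT + MSU and filled green symbols for WT + MSU + apigenin and 1 symbol shape for each replicate. From mt-Co1 down to Sirt3 the apigenin libraries lie to the right, and from Nlrp3 down to Osm they lie to the left without overlap, while those of Cd38 and Tnf overlap with WT + MSU.

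Some transcription factors that define macrophages fell while several macrophage products rose. Of 20 genes of macrophage identity, 7 were higher and 6 lower, beside 18% higher and 25.8% lower over all tested genes. Cebpb, a factor of the myeloid lineage, was at 99.4, 97.9 and 85.9 CPM in WT + MSU and 3.77, 7.21 and 11.9 CPM in WT + MSU + apigenin. All apigenin libraries lay below the lowest WT + MSU library (log2FC −3.63 ± 0.38, adjusted p = 2.54e-06). Cebpa (log2FC −3.76 ± 0.45, adjusted p = 8.38e-06), Irf8 (log2FC −1.54 ± 0.34, adjusted p = 0.00154) and Spi1, the gene of PU.1 (log2FC −1.27 ± 0.25, adjusted p = 5.18e-04), were also lower. Several surface and lysosomal genes went the other way, with Laptm5, a lysosomal membrane protein (log2FC 1.53 ± 0.15, adjusted p = 1.44e-06), the adaptor gene Tyrobp (log2FC 1.52 ± 0.24, adjusted p = 9.04e-05), the protease gene Ctss (log2FC 1.52 ± 0.45, adjusted p = 0.00947) and Adgre1, which encodes F4/80 (log2FC 1.27 ± 0.27, adjusted p = 0.00106). Csf1r, the receptor of M-CSF, did not pass the fold limit (log2FC 0.96 ± 0.25, adjusted p = 0.00429). With library totals 1 of the 7 higher genes was still called, and the median of the list was 0.15 in place of 0.85.

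Early response genes fell as a group. Of 25 early response transcription factors, 18 were lower and 1 was higher (median log2FC −2.15). Fosl1 and Fosl2, subunits of AP-1, had log2FC of −4.48 and −3.60, and Jund and Junb of −3.33 and −2.01. Fosl1 was listed at 0 in apigenin replicate 1, so that the size of its fall is uncertain. The Krüppel-like factor gene Klf6 was at 401, 459 and 559.9 CPM in WT + MSU and 15.1, 22.9 and 111 CPM in WT + MSU + apigenin. Its 3 apigenin libraries spread over a wide range and remained below WT + MSU (log2FC −3.25 ± 0.66, adjusted p = 7.46e-04). The nuclear receptor genes Nr4a3 (−4.22) and Nr4a2 (−3.22) and Myc (−1.82) were lower too. Egr1 was the exception, at 59.7, 143 and 73.0 CPM in WT + MSU and 70.5, 196 and 299.9 CPM in WT + MSU + apigenin (log2FC 1.04 ± 0.42, adjusted p = 0.047), and it was not called without apigenin replicate 2 or 3, without WT + MSU replicate 1 or 3, or with library totals. With the replicate number as a block its log2FC was 0.90 and it was not called.

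Feedback inhibitors of MAP kinase signalling showed the lowest median of all lists. Of 17 tested, 13 were lower and 0 higher (median log2FC −3.25, and −2.60 by limma on log2(FPKM + 0.5), where interferon-stimulated genes had the lowest median, −2.79). Errfi1, a feedback inhibitor of the EGF receptor family, was at 149.9, 369 and 147 CPM in WT + MSU and 6.21, 4.36 and 12.7 CPM in WT + MSU + apigenin. The groups were far apart (log2FC −4.84 ± 0.53, adjusted p = 3.76e-06). Dusp1, a phosphatase that inactivates p38 and JNK, was at 135, 235 and 342 CPM in WT + MSU and 8.79, 8.26 and 30.1 CPM in WT + MSU + apigenin. Here too apigenin replicate 3 was the highest of its group (log2FC −3.92 ± 0.54, adjusted p = 3.16e-05). The ERK pathway inhibitors Spry4 (−6.12) and Spry2 (−3.79) and the ERK phosphatases Dusp5 (−5.05), Dusp4 (−4.45) and Dusp6 (−3.95) fell too. Spry4 was listed at 0 in apigenin replicates 1 and 3, so that the size of its fall is uncertain.

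Receptors of the innate response were lower in most cases. Of 23 toll-like receptors, lectin receptors and their adaptors, 15 were lower and 0 higher. Tlr2, a receptor for bacterial lipoproteins (chr3:83836272-83841767), was at 478, 637 and 526 CPM in WT + MSU and 13.99, 16.2 and 62.7 CPM in WT + MSU + apigenin. No library overlapped (log2FC −4.14 ± 0.71, adjusted p = 1.79e-04). Tlr4, the receptor of lipopolysaccharide (log2FC −2.98 ± 0.51, adjusted p = 1.80e-04), Tlr13 (log2FC −2.85 ± 0.25, adjusted p = 7.74e-07), Tlr6 (log2FC −2.55 ± 0.54, adjusted p = 0.00105), Tlr1 (log2FC −2.44 ± 0.26, adjusted p = 3.22e-06) and the kinase gene Irak2 (log2FC −3.07 ± 0.55, adjusted p = 2.55e-04) also fell. The lectin receptor gene Clec4e, Mincle, fell by 2.77 on the log2 scale. NF-κB genes followed: of 19 subunits and feedback genes, 13 were lower and 0 higher. Rel was at 59.4, 89.2 and 106 CPM in WT + MSU and 3.44, 4.73 and 12.3 CPM in WT + MSU + apigenin (log2FC −3.64 ± 0.46, adjusted p = 1.41e-05), and Nfkb1 (log2FC −1.76 ± 0.35, adjusted p = 5.77e-04) and Rela (log2FC −1.84 ± 0.37, adjusted p = 6.07e-04) were lower by less. Nfkbia, the gene of the inhibitor IκBα, did not pass (log2FC −0.81 ± 0.76, adjusted p = 0.374), and without apigenin replicate 3 it was called lower (log2FC −2.46).

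Several cytokine genes fell strongly, and others, Tnf among them, were not called. Of 15 cytokine genes 8 were lower and 0 higher (median log2FC −2.23). All 3 apigenin libraries lay below all 3 WT + MSU libraries in 10 of the 15 and above them in 2. The highest log2FC of the list was 0.90. Osm, oncostatin M of the IL-6 family (chr11:4236420-4241026), was at 103, 208 and 245 CPM in WT + MSU and 0.484, 0.623 and 1.71 CPM in WT + MSU + apigenin. This was among the lowest log2FC of the genes with counts in every library (log2FC −7.60 ± 0.71, adjusted p = 1.10e-06). Lif, of the same family (log2FC −4.80 ± 0.71, adjusted p = 5.19e-05), Il1b (log2FC −4.73 ± 0.71, adjusted p = 5.98e-05), Il6 (log2FC −6.28 ± 1.47, adjusted p = 0.00211) and Csf1, the growth factor M-CSF (log2FC −2.04 ± 0.24, adjusted p = 7.36e-06), were also lower. Il10 was at 0.854, 1.54 and 0.764 CPM in WT + MSU and was listed at 0 in all 3 apigenin libraries, where 3 counts over each library correspond to 0.0584 to 0.0807 CPM. Tnf was at 225, 178 and 193 CPM in WT + MSU and 14.7, 46.2 and 239.5 CPM in WT + MSU + apigenin. Replicates 1 and 2 were low with apigenin and replicate 3 was as high as WT + MSU, and the difference did not pass (log2FC −0.99 ± 0.76, adjusted p = 0.276). Tnf was called lower without apigenin replicate 3 (log2FC −2.71), with the replicate number as a block in the fit of all 6 groups (−1.87) and with library totals (−1.77). Of 20 chemokine genes 9 were lower and 2 were higher. Cxcl5 (log2FC −4.10 ± 0.55, adjusted p = 2.24e-05), Cxcl1 (log2FC −3.02 ± 0.57, adjusted p = 4.11e-04) and Cxcl3 (log2FC −2.72 ± 0.43, adjusted p = 9.35e-05), which attract neutrophils, and Cxcl10 (log2FC −3.88 ± 0.89, adjusted p = 0.00188), which attracts T cells, fell. Ccl6 was at 1098, 1749 and 2524 CPM in WT + MSU and 10222, 5653 and 8396 CPM in WT + MSU + apigenin (log2FC 2.18 ± 0.33, adjusted p = 5.96e-05), and Ccl17, a ligand of CCR4, rose as well (log2FC 1.48 ± 0.36, adjusted p = 0.00254), with a log2FC of 0.79 and no call with library totals.

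Inflammasome genes were lower in 7 of 15 cases and higher in 1. Nlrp3, the sensor, was at 123, 182 and 128 CPM in WT + MSU and 26.9, 37.5 and 18.1 CPM in WT + MSU + apigenin. The 3 apigenin libraries lay below all others (log2FC −2.39 ± 0.37, adjusted p = 8.73e-05). Nlrc4 (−2.16) and Casp1 (−2.00) also had lower values, with Casp1 at 120.1 ± 14.6 CPM in WT + MSU and 29.9 ± 2.95 CPM with apigenin (mean ± SD, n = 3). The adaptor gene Pycard, which encodes ASC, was the 1 that rose (log2FC 1.14 ± 0.29, adjusted p = 0.00394), and it lost its call without WT + MSU replicate 2 and with library totals. Acod1, the mitochondrial enzyme that makes itaconate in activated macrophages (chr14:103046977-103056573), was at 809, 501 and 711 CPM in WT + MSU and 5.06, 2.45 and 2.84 CPM in WT + MSU + apigenin. This gene had the lowest log2FC of all genes with counts in every library (log2FC −7.61 ± 1.01, adjusted p = 2.10e-05).

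Interferon-stimulated genes were lower in 15 of 26 cases and higher in 0 (median log2FC −2.30). Ifit2, which binds foreign RNA, was at 597, 263 and 451 CPM in WT + MSU and 5.33, 9.43 and 7.24 CPM in WT + MSU + apigenin. The apigenin libraries stayed below 10 CPM (log2FC −5.90 ± 1.36, adjusted p = 0.0019). Ifit1 (log2FC −5.83 ± 0.96, adjusted p = 1.36e-04), Cmpk2 (log2FC −5.40 ± 0.88, adjusted p = 1.19e-04), the antiviral enzyme gene Rsad2 (log2FC −5.30 ± 0.91, adjusted p = 1.90e-04) and Isg15, a ubiquitin-like modifier (log2FC −4.94 ± 0.63, adjusted p = 1.57e-05), formed the same group. Irf9, a subunit of the interferon-activated complex ISGF3, was lower (log2FC −2.80 ± 0.39, adjusted p = 2.91e-05).

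MHC class II genes and their master regulator moved in opposite directions. Ciita, the coactivator that drives class II transcription, was at 7.19, 7.22 and 13.2 CPM in WT + MSU and 1.69, 0.498 and 0.739 CPM in WT + MSU + apigenin. The groups did not overlap (log2FC −3.24 ± 0.62, adjusted p = 4.68e-04). The structural genes H2-Aa (log2FC 1.47 ± 0.41, adjusted p = 0.00644), H2-Ab1 (log2FC 1.45 ± 0.37, adjusted p = 0.00399) and H2-Eb1 (log2FC 1.34 ± 0.36, adjusted p = 0.00571), the peptide loading genes H2-DMa (log2FC 2.21 ± 0.40, adjusted p = 2.81e-04) and H2-DMb1 (log2FC 1.91 ± 0.33, adjusted p = 1.94e-04) and the invariant chain gene Cd74 (log2FC 1.79 ± 0.38, adjusted p = 0.00105) were all higher. Cd74 was at 716, 694 and 1377 CPM in WT + MSU and 3689.98, 3430.2 and 2531 CPM in WT + MSU + apigenin, so that each apigenin library exceeded the highest WT + MSU library. With library totals H2-DMa, H2-DMb1 and Cd74 kept the call and the other 3 lost it. The costimulatory genes Cd86 (log2FC −1.34 ± 0.41, adjusted p = 0.0113) and Cd40 (log2FC −1.95 ± 0.44, adjusted p = 0.00161) and the checkpoint ligand gene Cd274, PD-L1 (log2FC −3.57 ± 0.44, adjusted p = 1.09e-05), fell.

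Genes of the NRF2 response were lower more often than higher. Of 21 tested, 8 were lower and 2 higher, beside 25.8% lower and 18% higher over all tested genes. Nfe2l2, the gene of NRF2 itself (chr2:75675513-75704641), was at 717, 857 and 907 CPM in WT + MSU and 37.1, 38.8 and 133 CPM in WT + MSU + apigenin. Apigenin replicate 3 was the highest of its group and below every WT + MSU library (log2FC −3.57 ± 0.52, adjusted p = 4.61e-05). Srxn1, sulfiredoxin (log2FC −4.07 ± 0.84, adjusted p = 8.40e-04), Txnrd1, thioredoxin reductase (log2FC −3.64 ± 0.51, adjusted p = 3.15e-05), the cystine transporter gene Slc7a11 (log2FC −3.65 ± 0.48, adjusted p = 1.86e-05) and the glutathione synthesis genes Gclc (log2FC −2.51 ± 0.36, adjusted p = 4.48e-05) and Gclm (log2FC −1.87 ± 0.32, adjusted p = 1.75e-04) were lower. Tkt (log2FC 1.41 ± 0.29, adjusted p = 9.23e-04) and Taldo1 (log2FC 1.33 ± 0.38, adjusted p = 0.00755) of the pentose phosphate pathway were higher, and neither was called with library totals.

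Among genes of the unfolded protein response Xbp1 fell while several protein folding genes rose. Xbp1, the transcription factor of the unfolded protein response, was at 108, 87.6 and 96.9 CPM in WT + MSU and 10.1, 8.08 and 4.30 CPM in WT + MSU + apigenin. It was the only gene of its list with a log2FC below −3 (log2FC −3.70 ± 0.69, adjusted p = 3.59e-04). The protein folding genes Pdia4 (log2FC 2.05 ± 0.24, adjusted p = 6.47e-06), Pdia6 (log2FC 1.68 ± 0.23, adjusted p = 2.54e-05), Hsp90b1 (log2FC 1.44 ± 0.22, adjusted p = 7.83e-05) and Calr (log2FC 1.40 ± 0.21, adjusted p = 6.31e-05) were higher. In this list 7 of 19 genes rose and 3 fell, beside 18% and 25.8% over all tested genes, with 1 rise kept under library totals. In the integrated stress response, 5 of 22 genes fell and 0 rose, so that the share of falls lay below the 25.8% of all tested genes. In the lists of heat shock chaperones, splicing factors, LXR and fatty acid genes and lysosome and autophagy that share also lay near the one over all genes. Trib3 (log2FC −5.31 ± 0.89, adjusted p = 1.50e-04), Ddit3, the gene of CHOP (log2FC −2.11 ± 0.30, adjusted p = 3.67e-05), and Slc3a2 (log2FC −1.92 ± 0.21, adjusted p = 3.76e-06) were lower, while Atf4, the factor that drives this response, did not pass the fold limit (log2FC −0.93 ± 0.37, adjusted p = 0.0427) and was called lower with library totals (−1.64). Trib3 was listed at 0 in apigenin replicate 1, so that the size of its fall is uncertain. Among heat shock chaperones, Bag3 (log2FC −2.66 ± 0.16, adjusted p = 1.02e-07) and Dnajb1 (log2FC −2.11 ± 0.32, adjusted p = 6.72e-05), cofactors of HSP70, were lower.

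Genes of NAD metabolism had no common direction. Of 20 tested, 3 were higher and 6 lower, shares that lie near those over all tested genes (18% and 25.8%). Sirt3, the deacetylase of mitochondria, was at 2.12, 2.88 and 2.39 CPM in WT + MSU and 11.2, 10.7 and 7.34 CPM in WT + MSU + apigenin. All 3 apigenin libraries exceeded the others, with replicate 3 the lowest of them (log2FC 1.98 ± 0.31, adjusted p = 7.59e-05), and the call was kept with library totals and lost by limma on log2(FPKM + 0.5). Bst1, a homologue of CD38, was higher (log2FC 1.98 ± 0.13, adjusted p = 1.08e-07), and so was Naprt, which makes NAD from nicotinic acid (log2FC 1.63 ± 0.35, adjusted p = 0.00107), though Naprt was not called with library totals (log2FC 0.92). Sirt1, the nuclear deacetylase, was at 32.6, 38.2 and 42.6 CPM in WT + MSU and 1.78, 5.09 and 7.32 CPM in WT + MSU + apigenin. The groups lay apart (log2FC −3.00 ± 0.74, adjusted p = 0.00297). Nampt, the enzyme of the NAD salvage pathway (log2FC −1.48 ± 0.33, adjusted p = 0.00133), the nuclear Nmnat1 (log2FC −2.61 ± 0.52, adjusted p = 6.67e-04) and the poly-ADP-ribose polymerase genes Parp14 (log2FC −3.43 ± 0.52, adjusted p = 6.31e-05) and Parp9 (log2FC −3.03 ± 0.44, adjusted p = 4.88e-05) were lower. Cd38 overlapped between the groups, at 35.9, 69.0 and 41.9 CPM in WT + MSU and 40.8, 85.6 and 92.9 CPM in WT + MSU + apigenin, and did not pass the test (log2FC 0.58 ± 0.35, adjusted p = 0.172), and its sign turned under library totals and limma. Sod2, superoxide dismutase of mitochondria and a target of Sirt3, was at 326 ± 7.56 CPM in WT + MSU and 238 ± 62.3 CPM with apigenin and did not pass (log2FC −0.46 ± 0.27, adjusted p = 0.161).

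Genes of cholesterol synthesis moved in both directions. An early step and a regulator were lower: Hmgcs1 was at 82.1, 27.7 and 45.9 CPM in WT + MSU and 5.62, 6.44 and 2.49 CPM in WT + MSU + apigenin (log2FC −3.42 ± 0.55, adjusted p = 1.0e-04), and Insig1, which holds back SREBP processing (log2FC −1.46 ± 0.32, adjusted p = 0.0012), was lower with it. The late enzymes Dhcr7 (log2FC 2.02 ± 0.18, adjusted p = 6.88e-07) and Ebp (log2FC 1.47 ± 0.19, adjusted p = 1.54e-05) and the kinase gene Mvk (log2FC 1.48 ± 0.22, adjusted p = 5.57e-05) were higher. In all 5 of 23 rose and 5 fell, shares that lie near those over all tested genes (18% and 25.8%), and 1 rise was kept with library totals. Prostaglandin and leukotriene genes also divided. Ptgs2, the inducible cyclooxygenase COX-2 (chr1:150100031-150108227), was at 191, 448 and 195 CPM in WT + MSU and 16.2, 15.1 and 16.4 CPM in WT + MSU + apigenin. The apigenin replicates were nearly equal and the groups lay far apart (log2FC −4.13 ± 0.73, adjusted p = 2.36e-04). Ptges, the inducible prostaglandin E synthase, was also lower (log2FC −2.09 ± 0.35, adjusted p = 1.65e-04). The leukotriene genes Alox5ap (log2FC 2.05 ± 0.18, adjusted p = 5.83e-07) and Alox5 (log2FC 1.99 ± 0.62, adjusted p = 0.0127) and the thromboxane synthase gene Tbxas1 (log2FC 1.66 ± 0.27, adjusted p = 1.07e-04) were higher, and Alox5 lost its call without WT + MSU replicate 3. Alox5ap was at 192, 133 and 129 CPM in WT + MSU and 632, 684 and 571 CPM in WT + MSU + apigenin. Of these 3 it kept the call with library totals.

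In glucose metabolism, Hk2, hexokinase 2 (log2FC −3.42 ± 0.33, adjusted p = 1.48e-06), Slc2a1, the glucose transporter GLUT1 (log2FC −1.62 ± 0.40, adjusted p = 0.00325), and the angiogenic factor gene Vegfa (log2FC −4.14 ± 0.35, adjusted p = 5.28e-07) were lower. The enzymes of the later steps rose, with Gpi1 (log2FC 1.61 ± 0.21, adjusted p = 1.73e-05), Eno1 (log2FC 1.43 ± 0.19, adjusted p = 2.27e-05), Pgk1 (log2FC 1.25 ± 0.20, adjusted p = 1.13e-04) and Pkm (log2FC 1.14 ± 0.25, adjusted p = 0.00125), and all 4 lost the call with library totals. Pdk1, which encodes a pyruvate dehydrogenase kinase, was higher (log2FC 2.06 ± 0.24, adjusted p = 6.81e-06). Of 21 genes of glycolysis and hypoxia 8 were higher and 4 lower, and 1 rise was kept with library totals. Among genes of alternative activation Mrc1, the mannose receptor CD206, was at 475, 696 and 486 CPM in WT + MSU and 3147, 2660.4 and 1938 CPM in WT + MSU + apigenin. Each apigenin library was above each other library (log2FC 2.22 ± 0.29, adjusted p = 1.54e-05). Clec10a, another lectin of this state, also rose (log2FC 2.33 ± 0.46, adjusted p = 5.69e-04), while its transcription factor genes Irf4 (log2FC −2.22 ± 0.50, adjusted p = 0.00156) and Klf4 (log2FC −2.95 ± 0.40, adjusted p = 2.70e-05) fell. In iron handling, Slc40a1, the iron exporter ferroportin (log2FC −2.78 ± 0.45, adjusted p = 1.09e-04), was lower. Steap4, a metalloreductase, was at 9.01, 22.3 and 5.44 CPM in WT + MSU and at 0, 0.395 and 0 CPM with apigenin, 0 in replicates 1 and 3.

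Survival genes of the BCL2 family and its neighbours were lower in 13 of 23 cases and higher in 0. The fall included both anti-apoptotic genes, such as Bcl2l1 (log2FC −2.64 ± 0.35, adjusted p = 1.83e-05), Cflar (log2FC −2.10 ± 0.60, adjusted p = 0.00774) and Birc3 (log2FC −2.10 ± 0.36, adjusted p = 1.89e-04), and pro-apoptotic ones, Bid (log2FC −2.20 ± 0.20, adjusted p = 9.55e-07) and Bcl2l11, which encodes BIM (log2FC −2.07 ± 0.35, adjusted p = 1.78e-04). Among p53 targets 8 of 20 fell and 1 rose. Mdm2, the ubiquitin ligase of p53, was at 333, 413 and 448 CPM in WT + MSU and 7.85, 6.23 and 49.3 CPM in WT + MSU + apigenin. The groups did not overlap (log2FC −4.24 ± 0.64, adjusted p = 6.46e-05). Cdkn1a, the cell cycle inhibitor p21, was lower as well (log2FC −2.12 ± 0.43, adjusted p = 6.78e-04). Of 15 clock genes, 8 were lower and 1 was higher, beside 25.8% and 18% over all tested genes. Among the lower were Bhlhe41 (log2FC −4.71 ± 0.61, adjusted p = 1.73e-05), Per1 (log2FC −3.40 ± 0.55, adjusted p = 1.18e-04), Cry1 (log2FC −3.18 ± 0.41, adjusted p = 1.58e-05) and Arntl, the gene of BMAL1 (log2FC −2.42 ± 0.41, adjusted p = 1.69e-04). Gpr176, an orphan receptor of the clock, was at 0.582, 1.13 and 0.292 CPM in WT + MSU and at 23.7, 0.0415 and 0.486 CPM with apigenin, so that the rise of its mean rested on replicate 1, and it did not pass (log2FC 3.59 ± 2.46, adjusted p = 0.223).

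In the other lists fewer members changed, or the directions were mixed. Of 30 lysosome and autophagy genes 8 were higher, among them Hexa, a subunit of β-hexosaminidase (log2FC 1.49 ± 0.19, adjusted p = 1.69e-05), and 7 were lower, among them Tfeb, the transcription factor of lysosome genes (log2FC −2.69 ± 0.32, adjusted p = 8.59e-06), and Flcn, the folliculin gene that acts on it (log2FC −2.32 ± 0.53, adjusted p = 0.00175). None of the rises of this list was called with library totals. Of 7 genes of the aryl hydrocarbon receptor (AhR) pathway, 3 were lower, Ahr itself (log2FC −3.45 ± 0.51, adjusted p = 5.26e-05), Ahrr (log2FC −1.88 ± 0.39, adjusted p = 7.99e-04) and Tiparp (log2FC −3.07 ± 0.91, adjusted p = 0.0095), the latter both induced by the receptor and inhibitors of it. Of 30 genes of cell cycle and DNA replication 5 were lower and 0 higher, and the mitotic kinases Plk1 (log2FC −2.86 ± 0.53, adjusted p = 3.73e-04) and Aurka (log2FC −1.95 ± 0.53, adjusted p = 0.00589) were among them. Of 19 LXR and fatty acid genes 5 were lower and 2 higher, with Mylip, which degrades the LDL receptor (log2FC −2.08 ± 0.42, adjusted p = 6.70e-04), and Ch25h, cholesterol 25-hydroxylase (log2FC −4.46 ± 0.95, adjusted p = 0.00103), as examples. Heat shock chaperones were lower in 5 and higher in 2 of 20 cases, iron genes lower in 6 and higher in 1 of 16, and genes of alternative activation lower in 4 and higher in 4 of 15. Over all tested genes 25.8% were lower and 18% were higher.

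Many genes that regulate RNA itself were lower, and few rose. Of 27 transcription elongation genes 13 were lower and 0 higher. Hexim1, which holds the kinase P-TEFb inactive, was at 65.6, 78.4 and 80.3 CPM in WT + MSU and 5.84, 1.99 and 7.65 CPM in WT + MSU + apigenin. No library overlapped (log2FC −3.86 ± 0.40, adjusted p = 2.73e-06). Polr2a, the large subunit of RNA polymerase II (log2FC −1.52 ± 0.26, adjusted p = 1.73e-04), and Brd2 (log2FC −2.38 ± 0.34, adjusted p = 3.59e-05) also fell. Of 25 mRNA decay genes 16 were lower and 0 higher, including the decapping genes Dcp1a (log2FC −2.83 ± 0.71, adjusted p = 0.00341) and Edc3 (log2FC −2.99 ± 0.28, adjusted p = 9.91e-07), and Zfp36l2, which binds AU-rich elements (log2FC −2.95 ± 0.52, adjusted p = 2.24e-04). Btg1, an antiproliferative gene whose product binds the CCR4-NOT deadenylase, was at 619.6, 736 and 972 CPM in WT + MSU and 32.6, 48.1 and 247 CPM in WT + MSU + apigenin. Replicate 3 was the highest of the apigenin libraries (log2FC −2.83 ± 0.66, adjusted p = 0.00214). The zinc finger genes with names of the form Zfp and a number were lower in 132 of 205 cases and higher in 6 (median log2FC −1.93). Of 29 splicing factor genes 7 were lower and 2 higher, with Tra2b (log2FC −2.29 ± 0.32, adjusted p = 3.58e-05) and Srsf3 (log2FC −1.52 ± 0.18, adjusted p = 8.99e-06) among the lower. For splicing factors the share of falls lay near the 25.8% over all tested genes.

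**Figure D2:**
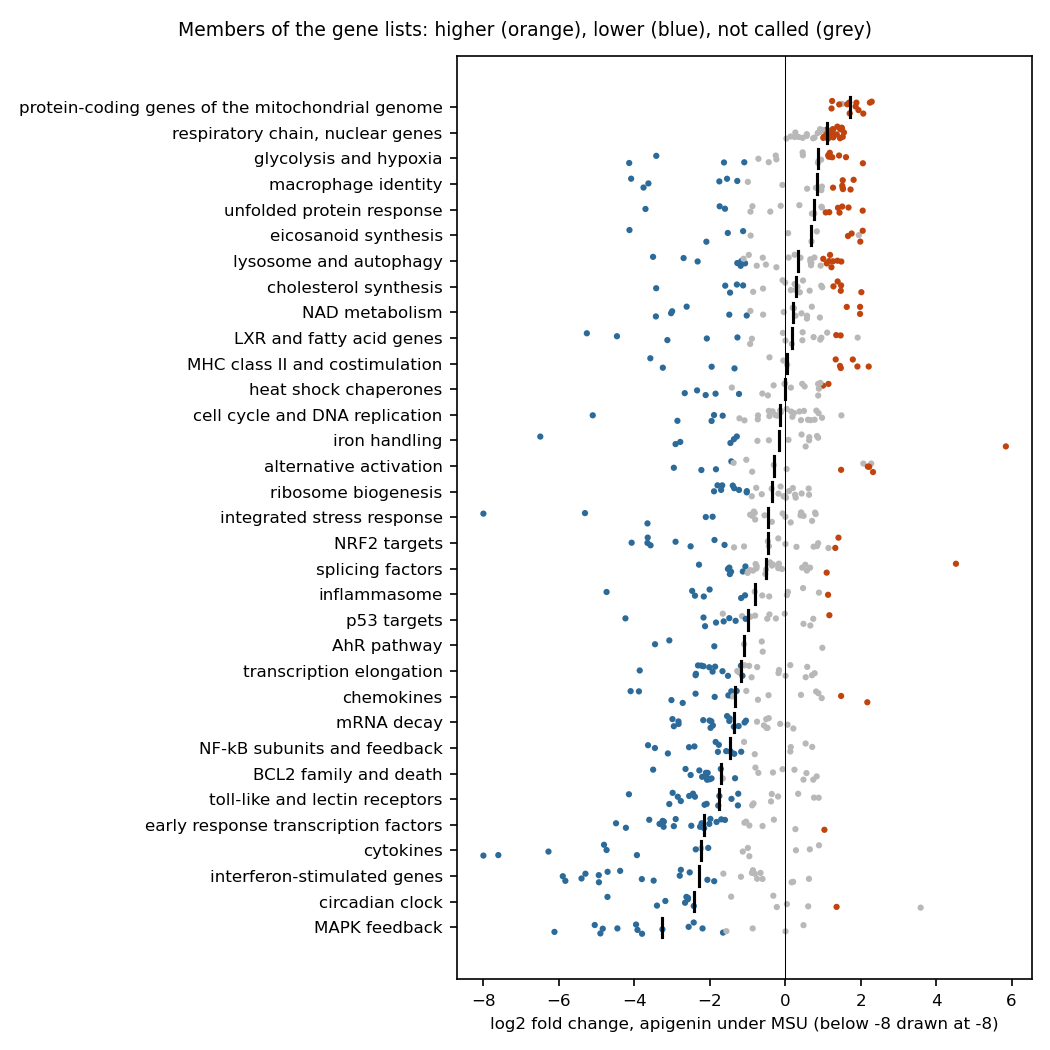
Log2 fold change of WT + MSU + apigenin against WT + MSU for each tested member of the gene lists, with 1 point for a gene, orange for higher, blue for lower, grey for not called, and a black bar for the median of a list (values below −8 are drawn at −8, and the Zfp and ribosomal protein genes are not shown). Lists are sorted by their median, from MAPK feedback at the bottom (−3.25) to the mitochondrial genome at the top (1.71), and NAD metabolism, cholesterol synthesis and the lysosome hold both orange and blue points.

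**Figure D3:**
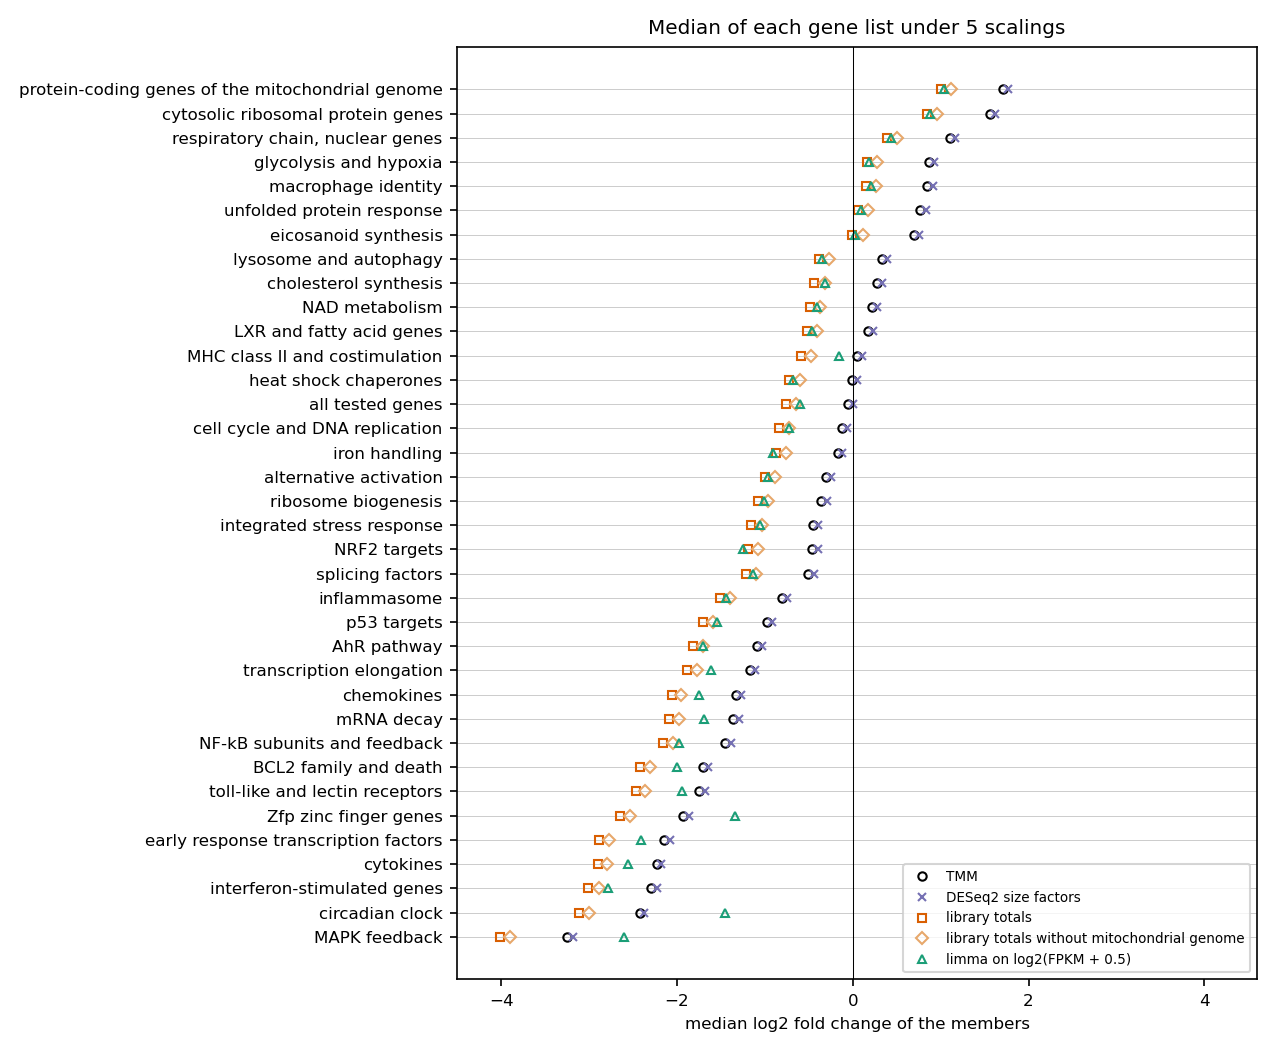
Median log2 fold change of the members of each list under 5 scalings, with 1 symbol for each scaling and a line at 0. Library totals move the median of all tested genes from −0.05 to −0.76, which takes the medians of 6 lists from above to below 0 (eicosanoid synthesis, lysosome and autophagy, cholesterol synthesis, NAD metabolism, LXR and fatty acid genes, MHC class II), while the lists with medians below −1 stay below −1 under all 5.

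The lowest fitted log2FC belonged to genes that were present in WT + MSU and listed at 0 with apigenin. The 12 lowest were Zbtb9, Chac1, Zfp456, Jrk, Pus3, Irx3, Foxc2, Slc24a5, Fam110c, Apol7c, Msl3l2 and Hdhd3, all listed at 0 in all 3 apigenin libraries. Chac1, which degrades glutathione and belongs to the integrated stress response, was at 7.70, 12.2 and 10.8 CPM in WT + MSU, and Irx3, a homeobox gene, at 4.07, 5.41 and 4.57 CPM. In these tables an exact 0 can be a failed estimate. Adnp, a widely expressed gene, was listed at 0 in 8 of the 18 libraries and at up to 65.9 CPM in the others, and Zbtb9 was at 0 in 10 libraries and lost its call when any 1 of the 6 compared libraries was left out. In all 30 of the lower genes were at 0 in all 3 apigenin libraries and 8 of the higher genes at 0 in all 3 WT + MSU libraries. Without every gene that had a 0 in any of the 6 libraries, 2141 higher and 2888 lower genes remained.

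Among genes with counts in all 6 libraries, the lowest log2FC after Acod1 and Osm included Hilpda, an inhibitor of lipolysis at lipid droplets, at 72.4, 172 and 228 CPM in WT + MSU and 1.34, 0.831 and 1.63 CPM in WT + MSU + apigenin. The groups lay far apart (log2FC −6.95 ± 0.53, adjusted p = 2.60e-07). The translation regulator gene Cpeb4 (log2FC −5.71 ± 1.13, adjusted p = 5.89e-04) and Slfn5 (log2FC −5.61 ± 0.49, adjusted p = 6.56e-07) were further members, chosen after their values were seen. The highest log2FC of all were found at low levels. The antisense gene 2900060B14Rik was at 0.0495, 0 and 0 CPM in WT + MSU and 14.7, 13.5 and 13.3 CPM in WT + MSU + apigenin, and since its partner gene lies on the other strand, its reads may not be told apart where counting ignored strand. Colec11, a soluble collectin, was listed at 0 in WT + MSU and at 3.01, 2.39 and 2.78 CPM with apigenin. Apoa1, the apolipoprotein of high-density lipoprotein, was at 0, 0.0860 and 0 CPM in WT + MSU and 4.03, 1.06 and 3.76 CPM in WT + MSU + apigenin. Gm26917, a long noncoding gene whose counts may hold reads of similar sequences, was at 35.6, 27.2 and 17.3 CPM in WT + MSU and 342, 506 and 962 CPM in WT + MSU + apigenin, with replicate 3 the highest. At higher levels Naaa, a lysosomal amidase that degrades palmitoylethanolamide, was at 41.2, 59.8 and 49.7 CPM in WT + MSU and 579.8, 534 and 276 CPM in WT + MSU + apigenin. The 3 libraries with apigenin were all above WT + MSU, the lowest being replicate 3 (log2FC 3.20 ± 0.33, adjusted p = 2.74e-06). Cdh1, E-cadherin (log2FC 4.21 ± 0.68, adjusted p = 1.11e-04), and Golm1, a Golgi membrane protein (log2FC 4.02 ± 0.85, adjusted p = 9.90e-04), rose from levels of 2.04, 1.98 and 1.21 CPM and 1.65, 2.78 and 1.93 CPM in WT + MSU. DESeq2 gave Golm1 no adjusted p.

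The structure of the genes differed between the directions. The median 3′ UTR, of the longest annotated, was 687 bases in the 1585 higher protein-coding genes, 1670 bases in the 2975 lower ones and 1314 bases in those not called. The whole gene span was 13105, 23865 and 24849 bp at the median. ATTTA, the pentamer of the AU-rich elements that mark short-lived messages, stood at least once in the 3′ UTR of 49.8% of higher, 80.4% of lower and 70.5% of the genes not called. Since long UTRs hold more pentamers by length alone, the shares were also taken within classes of length. In 3′ UTRs of 501 to 1000 bases, 20.5% of 831 genes without ATTTA were lower, 29.3% of 1199 with at least 1 and 35.9% of 295 with at least 3. The shares of higher genes in the same 3 sets were 21.8%, 15.3% and 12.5%. The classes were not alike. In 3′ UTRs of 1 to 500 bases the shares of higher genes were 32.7%, 19.5% and 20.8%, the last over 53 genes, whose median log2FC (0.334) lay above that of the genes with at least 1 (0.0965). In 3′ UTRs above 1000 and up to 2000 bases 32.7% of the genes with at least 1 and 34.5% of those with at least 3 were lower, and in longer ones 37.0% and 38.4%. These shares are descriptions over genes, which are not replicates, and GC content differed as well, at a median of 51.9% in higher and 48.8% in lower transcripts.

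**Figure D4:**
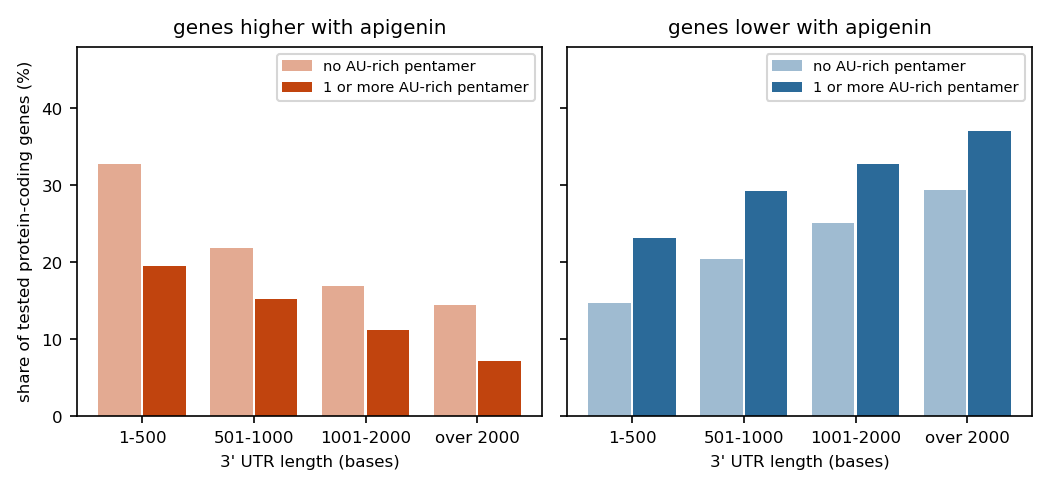
Share of tested protein-coding genes called higher (left, orange) and lower (right, blue) with apigenin under MSU, by 3′ UTR length in bases, with pale bars for genes without the pentamer ATTTA and full bars for genes with 1 or more. Within each length class the lower share is larger with the pentamer (14.7% against 23.1% for 1 to 500 bases) and the higher share smaller (32.7% against 19.5%).

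The following stretches of 30 bases show such elements in the 5 lower list members in which 30 bases of the 3′ UTR held 4 or more ATTTA, with the pentamers in capitals, read from GENCODE M21 transcripts on GRCm38 and written 5′ to 3′ on the strand of the gene. Birc3 has 6 in its stretch (chr9:7857119-7857148, minus strand), Ptgs2 4 (chr1:150105794-150105823, plus strand), Cxcl1 4 (chr5:90892607-90892636, plus strand), Bcl2 4 (chr1:106543002-106543031, minus strand) and Ikbkg 4 (chrX:74452554-74452583, plus strand). Their log2FC were −2.10, −4.13, −3.02, −1.71 and −1.42, and Ikbkg lost its call without apigenin replicate 1 or 3 or without WT + MSU replicate 1 or 2. A match is a description of the annotated sequence, and its part in the change was not tested.
Birc3: ATTTATTTATTTATTTAaaagATTTATTTA
Ptgs2: ccatATTTATTTATTTAtgtgaagaATTTA
Cxcl1: tcctATTTATTTAtgtATTTATTTAttcca
Bcl2: ATTTAggaaaaaaaagATTTATTTATTTAa
Ikbkg: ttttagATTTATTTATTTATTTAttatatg

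Motifs in promoters were counted in the same way. Among 8336 tested genes with a RefSeq promoter of 250 bases before to 50 after the start, on either strand, the cyclic AMP response element TGACGTCA was found in 4.09% of lower, 2.69% of higher and 3.08% of the genes not called, and in 1.88% of all promoters. For the AP-1 site TGANTCA these shares were 4.96%, 5.38%, 4.81% and 7.93%, and for the form GGANTTTCC of the NF-κB site 1.65%, 1.31%, 1.17% and 1.23%. By gene class, processed pseudogenes were higher in 454 of 1131 cases and lower in 46, and since they are copies of messages such as those of ribosomal proteins, their counts may hold reads of the parent genes. Protein-coding genes alone gave 1585 higher and 2975 lower.

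Many of these genes were also called without MSU crystals. Against WT non-treated, WT + apigenin had 1573 higher genes (13.1%) and 2664 lower genes (22.2%), and these 6 libraries are not shared with the comparison under MSU. Of the genes higher under MSU, 56.0% were also called higher without it, and 77.2% of the genes higher without MSU were called under it. For the lower genes these shares were 72.2% and 84.2%. Across the 12025 genes the log2FC of both comparisons had a Pearson's r of 0.818 and a Spearman's rho of 0.865, a description over genes, which are not independent. The median log2FC of the genes lower under MSU was −2.04 under MSU, where it chose them, and −1.63 without.

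The test of the difference between both effects called few genes. In 83 genes (0.69% of those tested) the apigenin effect was more negative under MSU, and in 43 (0.358%) more positive. With the replicate number as a block these counts were 127 and 67 in the fit of 6 groups and 70 and 31 in the fit of the 4 WT groups. Both blocks were set separately for the libraries with MSU and those without, so that equal numbers with and without MSU were not taken as 1 source. In replicate 1 the level of Xist differed between the libraries with and without MSU. Inflammatory genes were among those called by this test. Il6, the cytokine IL-6, had a log2FC of −6.28 under MSU and 3.08 without, a difference of −9.36 ± 1.96, adjusted p = 0.0336. Its levels without MSU were at or below 2.11 CPM in all 6 libraries, so that the value without MSU rests on few counts. In the same way Acod1 (difference −6.40 ± 1.17, adjusted p = 0.0178), Hilpda (−5.96 ± 0.63, adjusted p = 0.00134), Osm (−5.38 ± 0.81, adjusted p = 0.00613), Olr1, a receptor for oxidised lipoprotein (−4.97 ± 0.70, adjusted p = 0.00509), Il1b (−4.06 ± 0.89, adjusted p = 0.0406), Cxcl1 (−3.70 ± 0.77, adjusted p = 0.0336), Cxcl3 (−4.67 ± 0.60, adjusted p = 0.0032) and Vegfa (−2.95 ± 0.44, adjusted p = 0.00613) had a more negative log2FC under MSU. Cxcl3 was called higher by apigenin without MSU (log2FC 1.95 ± 0.42, adjusted p = 0.00149) and lower with it. Chac1, Irx3, Slc24a5 and Gm527 were the other 4 of the 5 lowest differences, each at 0 in all 3 libraries with apigenin under MSU. Genes of the oxidative stress response were also more negative under MSU, with Hmox1 (−1.91 ± 0.30, adjusted p = 0.0079), Sqstm1 (−1.76 ± 0.25, adjusted p = 0.00509), Slc7a11 (−3.39 ± 0.63, adjusted p = 0.0179) and Gclm (−1.95 ± 0.44, adjusted p = 0.0438). In the other direction, Kmo, an enzyme of tryptophan breakdown towards NAD, was at 0.841, 1.00 and 1.07 CPM in WT + MSU and 9.23, 8.56 and 3.83 CPM in WT + MSU + apigenin and had a log2FC of 2.89 under MSU and −0.86 without (difference 3.75 ± 0.82, adjusted p = 0.0406). Dbp, a clock output factor (2.73 ± 0.63, adjusted p = 0.0481), whose own call under MSU was lost without apigenin replicate 1 or 2 or WT + MSU replicate 3, and Gm13710 (2.67 ± 0.42, adjusted p = 0.0079), Gpr155 (2.58 ± 0.51, adjusted p = 0.0254) and Gm10642 (6.05 ± 1.37, adjusted p = 0.0438) were the other 4 of the 5 highest. The counts of this test moved strongly with the settings and with single libraries, from 13 to 64 genes (more positive) and from 43 to 182 (more negative) when 1 library was left out. The lowest counts were those without WT + MSU replicate 2 and without WT non-treated replicate 2, and 182 was the count without WT + MSU + apigenin replicate 3. With the treatment tags in place of the titles the counts were 107 and 87, of which only 19 and 39 were the same genes as by title.

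**Figure D5:**
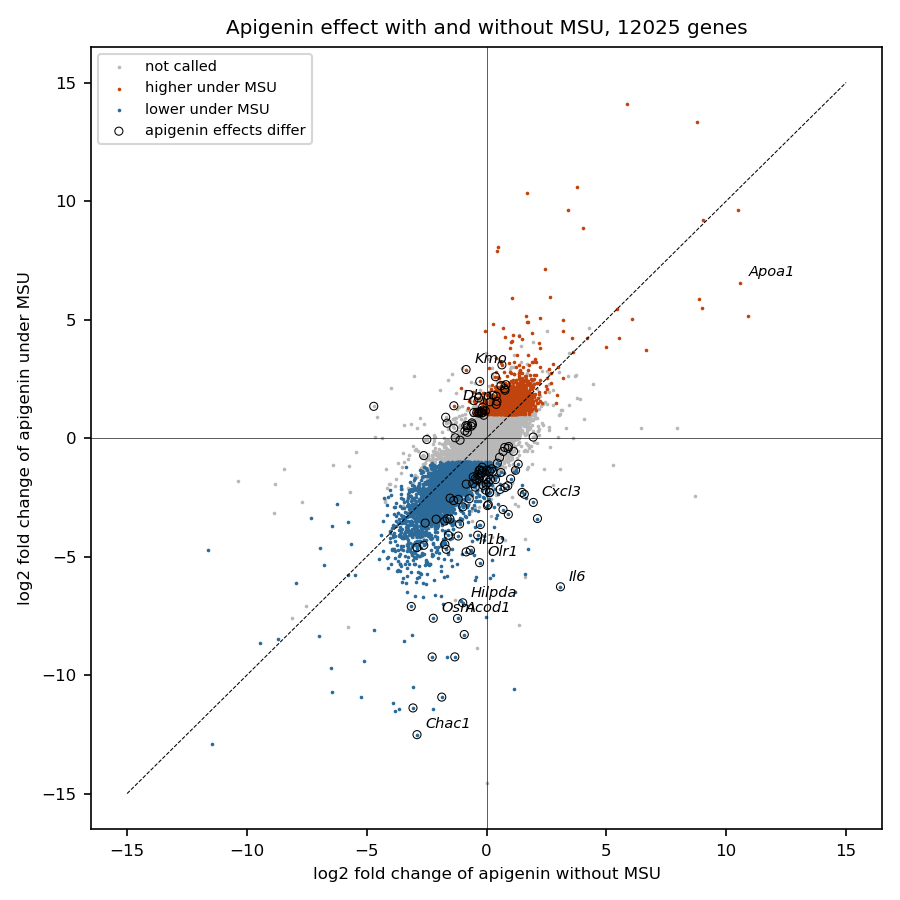
Log2 fold change of apigenin without MSU (x axis, WT + apigenin against WT non-treated) and under MSU (y axis, WT + MSU + apigenin against WT + MSU) for 12025 genes, orange for higher and blue for lower under MSU, with a ring for genes whose effects differ by the test and a dashed line of equal effects. The blue points lie mostly in the lower left and the orange points in the upper right corner, and Il6, Acod1, Hilpda and Osm lie below it, while Kmo lies above it.

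The labels of the apigenin libraries disagree, since a treatment tag gives MSU to the libraries titled as apigenin alone and the reverse. Titles and column names give the same groups and were used. With the tags in their place, 2070 genes were higher and 2830 lower, 1773 and 2624 of them the same genes as by title, and 1 gene was called in the opposite direction. Of the genes named here, the tags ended the calls of Dbp, Ctsb, Pus3 and Gm527 and of the pseudogene Gm28661, and turned the sign of Egr1 and Gm10642.

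The replicates differed in ways that the groups share. Xist, of the inactive X chromosome, was near 0 in replicate 2 of both groups (0.118 and 0.166 CPM) and at 56.5 to 83.4 CPM in replicates 1 and 3. In replicate 1 without MSU, Xist had 0 CPM (non-treated) and 0.0730 CPM (apigenin), so that number 1 differed between the libraries with and without MSU. Ifi202b, a gene that varies among mouse strains, was at 135 and 152 CPM in WT + MSU replicates 1 and 2 and at 0 in replicate 3. Of 3107 lower genes 3087 were lower in all 3 pairs of equal number, and of 2168 higher genes 2151 were higher in all 3. These genes were called on the same 6 libraries. In 5119 of the 5275 called genes the groups did not overlap, which sets the sign in each pair. The counts within pairs are thus no separate support for the direction. The pair of number 3 showed smaller falls in several lists, with a median log2 ratio of −1.49 for early response factors beside −2.80 and −2.59 in pairs 1 and 2, and of −2.53 for MAPK feedback beside −3.80 and −3.97. Macrophage markers (8 tested, 3 higher and 1 lower) summed to 18084 to 18709 CPM in WT + MSU and 47398 to 60552 CPM with apigenin. Lyz2 made up most of each sum. In all 6 libraries the sum lay above those of the other cell types listed. Fibroblast markers (7 of 8 tested, none called) summed to 659 to 3851 CPM and 1836 to 6711 CPM, highest in replicate 2 of both groups. Neutrophil markers (7 of 9 tested, none called) summed to 15.4 to 312 CPM and 20.3 to 333 CPM. Of 7 dendritic cell markers 3 were tested, of which 1 was higher and 2 lower, and the sums were 10.7 to 19.9 CPM and 4.36 to 28.4 CPM. Endothelial markers (5 of 6 tested, none called) summed to 31.7 to 67.2 CPM and 34.3 to 128 CPM, and T and B cell markers stayed at or below 4.09 CPM. For T and B cells and erythroid cells no marker passed the filter. The part of these other cells in the results was not tested.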

How the data were processed

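RNA was extracted from BMDMs of 6 groups with 3 libraries each, and poly(A)-selected, strand-specific libraries were sequenced. Per the submitters' notes, cutadapt, FastQC, HISAT2 and StringTie were used, with edgeR for comparisons. The versions and the genome build are not given in the sources used here. For each gene and library the authors deposited a read count and an FPKM value. The deposited counts are whole numbers in which 4 and 8 are overrepresented, as in counts computed back from StringTie's coverage, and an exact 0 can be a failed estimate. The FPKM values, scaled to gene length and library depth, were computed by the authors and served for the filter and for limma. The table's columns of the authors' own comparisons were not used.

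Counts of all 18 libraries entered 1 fit of 6 groups in edgeR 4.0.16 (R 4.3.3) with TMM factors and the quasi-likelihood test, since the columns name the groups as the titles do. The filter kept genes whose FPKM reached 1 in 3 or more libraries. CPM are TMM-normalised, and standard errors were derived from the F statistic. Calls needed a Benjamini-Hochberg adjusted p under 0.05 over the 12025 genes and a log2FC of 1 or more in size. The script was tested on simulated counts. Total counts per library, given in the report, put 3 counts at 0.0323 to 0.0807 CPM in the 6 libraries, a limit that covers counting error only. No pair of libraries of a group agreed within sampling noise.

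Genes were named by rule: among called genes without overlap the 12 highest and 12 lowest log2FC and the 8 largest differences of mean CPM in each direction, up to 4 called members of each list with up to 2 that it turns on, genes discussed in the study, and the 5 highest and 5 lowest differences of effects. Further list members and genes with counts in all libraries were added after their values were seen. A few genes that the rule names are not reported here. The members and lists were chosen with earlier results of these data known. Gene positions, 3′ UTRs and biotypes came from GENCODE M21 on GRCm38, matched by gene ID, and promoters from RefSeq, matched by symbol.

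Whether equal replicate numbers pair libraries was checked by the correlation of their deviations from the group means. It was 0.13 to 0.39 for equal numbers under MSU, above 0.1 in every pair, with −0.36 to 0.02 for unequal numbers, and 0.23 to 0.56 without MSU, with −0.43 to 0.33 for unequal numbers. Without MSU the ranges of equal and unequal numbers overlap. The main fit took the libraries as unpaired. The replicate block, which pairs equal numbers, was used as an alternative on the ground of these correlations alone. Alternatives were DESeq2 1.42.0 and its size factors, library totals with and without the mitochondrial genome, limma 3.58.1 on log2(FPKM + 0.1, 0.5 or 1), other filters, fewer groups in the fit, the replicate block, the treatment tags, and leaving out each library. Counts restricted to genes with counts in all 6 libraries, to protein-coding genes and to genes other than pseudogenes and mitochondrial ones, and ratios within each replicate number, were added after seeing the data.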

Additional observations from a re-analysis of the deposited data

Results flagged for a closer look

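The effect of apigenin differed between BMDMs with and without MSU crystals, by edgeR's test of the difference at an adjusted p under 0.05 and a difference of at least 1, in 83 genes that were more negative and 43 that were more positive under MSU. Among the cytokine and chemokine genes the difference of log2FC was −9.36 for Il6, −6.97 for Il10, −5.38 for Osm, −4.67 for Cxcl3, −4.06 for Il1b, −3.95 for Lif, −3.73 for Cxcl5 and −3.70 for Cxcl1. Other genes of activation and metabolism were Acod1 (−6.40), Hilpda (−5.96), Olr1 (−4.97), Nr4a2 (−4.13), Vegfa (−2.95), Ptges (−2.86), Hk2 (−1.89) and Bcl2 (−1.39). The stress genes were Slc7a11 (−3.39), Gclm (−1.95), Hmox1 (−1.91), Sqstm1 (−1.76), Slc3a2 (−1.35) and Chac1 (−9.61). Slc24a5 (−9.06), Irx3 (−8.32) and Gm527 (−7.91), with Chac1 and Il10, were at 0 in all 3 libraries with apigenin under MSU, so that their fitted values depend on the prior count and measure no size. The more positive differences were those of Gm10642 (6.05), Kmo (3.75), Dbp (2.73), Gm13710 (2.67), Gpr155 (2.58) and Dhcr7 (1.25). With 3 libraries in each group no single library was tested as an outlier.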

How the results depend on the processing

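The direction of the apigenin effect was kept by most named genes, the counts of calls under and without MSU moved most with the scaling and the filter, and those of the differences of effects moved with DESeq2, the filter, the tags and single libraries. Of 195 named genes that were called, 8 lost the call in a fit without 1 library of the comparison (Alox5, Dbp, Egr1, Gm28661, Gm29216, Ikbkg, Pycard and Zbtb9), 0 with DESeq2 (which gave Golm1 and Zbtb9 no adjusted p) and 31 with library totals, all of them genes that had been called higher. Cd38, not called, turned to −0.15 with library totals, to −0.039 without the mitochondrial genome in them, and to −0.13, −0.12 and −0.12 by limma on log2(FPKM + 0.1), + 0.5 and + 1. The treatment tags in place of the titles turned Egr1 to −1.13 and Gm10642 to −2.14, and leaving out WT + MSU + apigenin replicate 1 turned Gpr176 from 3.59 to −1.32, its range being −1.32 to 4.20 when each library was left out in turn.

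Under MSU, with 2168 higher and 3107 lower genes, library totals gave 351 and 4813, totals without the mitochondrial genome 528 higher, and limma 420, 341 and 271 higher and, with 0.1 added, 4781 lower. An FPKM of at least 1 in all libraries left 6518 genes, of which 944 were higher and 1284 lower. Without MSU, with 1573 higher and 2664 lower genes, library totals gave 129 and 4470, totals without the mitochondrial genome 155 and 4254, limma 146, 126 and 98 higher and, with 0.1 and 0.5 added, 4426 and 3999 lower, and the stricter filter 468 and 1018. The 43 genes more positive under MSU became 151 with DESeq2, 28 with library totals, 7 without a filter on FPKM and 107 with the treatment tags. The 83 genes more negative became 266 with DESeq2, 125 by limma with 1 added, 51 without a filter and 53 with the 12 WT libraries alone. Apart from the smaller number of genes or libraries in some of these fits, the cause was not tested.

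Without 1 library, the counts under MSU ranged from 1958 to 2085 higher and from 2910 to 3080 lower, and those without MSU from 1278 to 1605 and from 2383 to 2600. The differences of effects ranged from 13 to 64 and from 43 to 182 genes. When replicates 1, 2 and 3 of WT non-treated were left out in turn, the more positive ones fell to 20, 14 and 23. They were 22 and 13 when WT + MSU lacked replicate 1 or 2, and 15 when either group with apigenin lacked replicate 1. The more negative ones were 45 and 43 when WT non-treated lacked replicate 1 or 2, 46 when WT + MSU lacked replicate 2, and 55 or 182 when WT + MSU + apigenin lacked replicate 1 or 3. With the replicate block in the fit of 6 groups these counts were 67 and 127, of which 36 and 74 were the same genes. The block gave 2256 higher and 3250 lower genes under MSU, and among named genes it changed no other call than those of Egr1, Gm28661 and Tnf. Genes at 0 in a group, levels near 0.0807 CPM and the 3 libraries in each group limit what the comparison can resolve.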
